A study of Mus musculus with 36 samples.

Results

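The p53 gene Trp53, 5 genes known as targets of the p53 protein (Mdm2, Ccng1, Phlda3, Eda2r and Cdkn1a) and 4 further genes of cell cycle inhibitors (Cdkn1b, Cdkn1c, Cdkn2a and Cdkn2b) were followed across all 12 groups of an RNA-seq study of murine keratinocytes, the main cells of the epidermis. The 10 genes were picked by symbol from the 55358 genes of the read count table, and all 10 of them passed the filter on low counts that left 15114 genes to test. WT keratinocytes came from newborn pups with intact Pkp4, and PKP4-KO keratinocytes from newborn pups whose Pkp4 allele, derived from tm1b(EUCOMM)Wtsi, lacks an exon, on a C57BL/6J background. Pkp4 encodes plakophilin 4, a protein of cell-cell junctions. Rescue cells are PKP4-KO cells that also carry human PKP4 with an EGFP tag, delivered by a lentivirus and kept by selection with puromycin. Each line was grown for 24 h or for 72 h in low calcium medium (LCM) or in high calcium medium (HCM), the signal that lets keratinocytes form junctions and start to differentiate, with 3 libraries for each of the 12 groups. The labels code the 72 h cultures as HD and the 24 h cultures as LD without spelling the codes out, and no cell density was measured in the files used here, so differences with confluence are described as differences between 72 h and 24 h. WT and PKP4-KO cells were isolated from different animals, and Rescue cells went through infection and selection that the other lines did not, so genotype, isolate and selection cannot be told apart. Nothing in the labels ties the libraries of a group to separate isolations, and p-values therefore measure the spread between these libraries only. In these bulk cultures, fewer cells expressing a gene and less RNA per cell cannot be told apart.

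The p53 protein is a transcription factor that is stabilized by DNA damage and other stress and then switches on genes that halt the cell cycle, repair DNA or kill the cell. Its level is set mainly through the stability of the protein, so its mRNA does not report its activity. Mdm2 is the ubiquitin ligase that marks p53 for degradation and is itself a p53 target, which closes a feedback loop. Cyclin dependent kinases drive the cell cycle, and 2 families of inhibitors hold them back. The CIP/KIP family, p21 (Cdkn1a), p27 (Cdkn1b) and p57 (Cdkn1c), binds cyclin-kinase complexes, and the INK4 family, which includes p16 (Cdkn2a) and p15 (Cdkn2b), binds Cdk4 and Cdk6. In the epidermis, cells that leave the basal layer stop dividing, and CIP/KIP inhibitors are among the genes known to take part.

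All 10 are protein-coding genes, with positions given on GRCm39. The p53 gene and its targets are Trp53 (chr11:69469669-69482701, + strand), Mdm2 (chr10:117524780-117546730, - strand), Ccng1 (chr11:40639377-40646148, - strand), Phlda3 (chr1:135693809-135697686, + strand), Eda2r (chrX:96320270-96420847, - strand) and Cdkn1a (chr17:29309936-29319701, + strand). The other inhibitors are Cdkn1b (chr6:134897364-134902476, + strand), Cdkn1c (chr7:143012069-143014806, - strand), Cdkn2a (chr4:89192708-89212890, - strand) and Cdkn2b (chr4:89223204-89229276, - strand).

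p53 binds DNA as a tetramer at a pair of adjacent half-sites, and how closely each gene carries such a pair is shown here as a description. Whether it goes with the direction in which a gene moved was not tested. The p53 consensus, 2 half-sites with no spacer, reads the same on both strands, and only the C and the G of each half-site core were required to match. It was searched within 3000 bases on each side of the start of the main transcript of 21770 protein-coding genes (GRCm39, GENCODE annotation). A site with at most 1 mismatch was found for 0.9% of these genes, one with at most 2 for 5.9% and one with at most 3 for 25.8%. The closest site of each target with at most 3 mismatches, and that of Cdkn2b, is printed below on the strand of the gene, with the 20 bases of the site in capitals and their coordinates before it.
Cdkn1a, chr17:29309902-29309921, + strand, 2826 bases upstream, 1 mismatch: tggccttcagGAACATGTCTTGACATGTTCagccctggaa
Ccng1, chr11:40646289-40646308, - strand, 160 bases upstream, 1 mismatch: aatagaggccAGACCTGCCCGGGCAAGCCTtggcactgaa
Ccng1, chr11:40645763-40645782, - strand, intron 1, 1 mismatch: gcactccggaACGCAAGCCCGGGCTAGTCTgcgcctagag
Cdkn2b, chr4:89226637-89226656, - strand, intron 1, 1 mismatch: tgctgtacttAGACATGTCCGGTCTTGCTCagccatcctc
Eda2r, chrX:96420140-96420159, - strand, intron 1, 2 mismatches: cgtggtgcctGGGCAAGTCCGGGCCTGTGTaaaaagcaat
Mdm2, chr10:117546010-117546029, - strand, intron 1, 3 mismatches: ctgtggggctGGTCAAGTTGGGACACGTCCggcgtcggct
The closest match of Phlda3 had 4 mismatches, those of Trp53 and Cdkn1b had 3, and those of Cdkn1c and Cdkn2a had 5. A match is a description of the letters and not evidence of binding, and p53 binding was not measured in these samples.

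**Figure D1:**
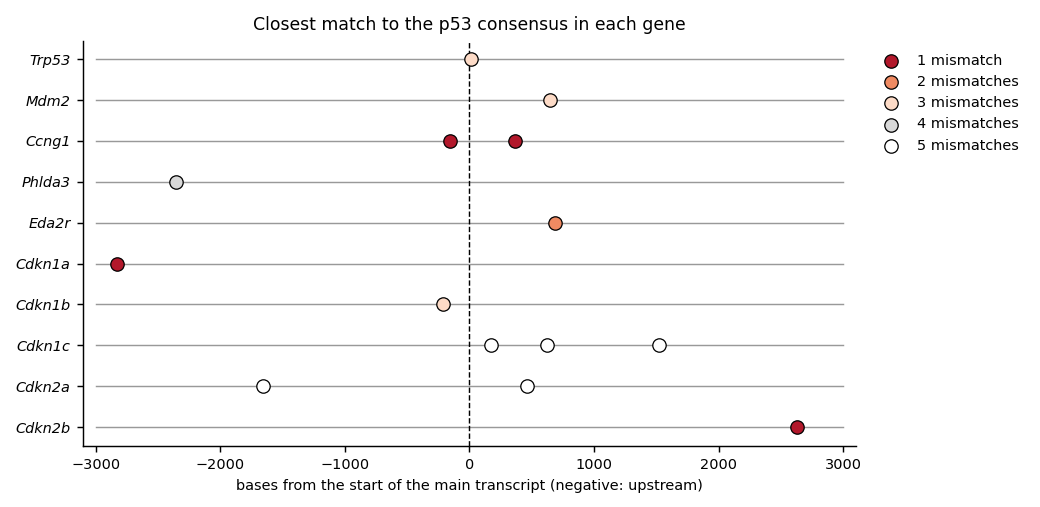
Closest match to the p53 consensus within 3000 bases of the start of the main transcript of each gene. The horizontal axis gives the distance in bases from that start on the strand of the gene, each circle is a match, and its colour gives the number of mismatches. Cdkn1a, Ccng1 and Cdkn2b carry a match with 1 mismatch, while the closest matches of Cdkn1c and Cdkn2a have 5.

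The libraries held 13602728 to 22467187 counted reads (median 17353519.5), and levels are given as normalized CPM, the counts scaled to the library total and by TMM factors. Adjusted p-values are those of the quasi-likelihood test in edgeR, corrected over the 15114 genes by the method of Benjamini and Hochberg, a gene is called at an adjusted p below 0.05, and ± after a log2 fold change is its standard error. The targeted gene followed the labels. Pkp4 stood at 33.4 to 76.3 (median 42.7) CPM in WT and 6.40 to 14.1 (median 8.57) in PKP4-KO, a difference called in all 4 conditions, and the mouse gene stayed at 6.52 to 11.9 (median 8.63) in Rescue, whose human transgene was not analysed here. Keratinocyte markers summed to 22913 to 69892 CPM in every library, against at most 11.5 for fibroblast, 6.52 for melanocyte, 5.41 for endothelial and 1.31 for immune markers. The 3 libraries of PKP4-KO at 72 h HCM had TMM factors of 0.481 to 0.546, against 0.705 to 1.39 elsewhere, and counted fewer reads on long genes, which cannot be told apart from the group itself. In 7 further libraries from 7 groups, long genes were also low relative to the other libraries of the same group. In these 7 libraries, Mdm2, Ccng1, Cdkn1c and Cdkn2b lay below their group mean in 7 of 7 and Eda2r in 6 of 7, while Trp53, Phlda3, Cdkn1a and Cdkn2a lay above it in 7 of 7.

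**Figure D2:**
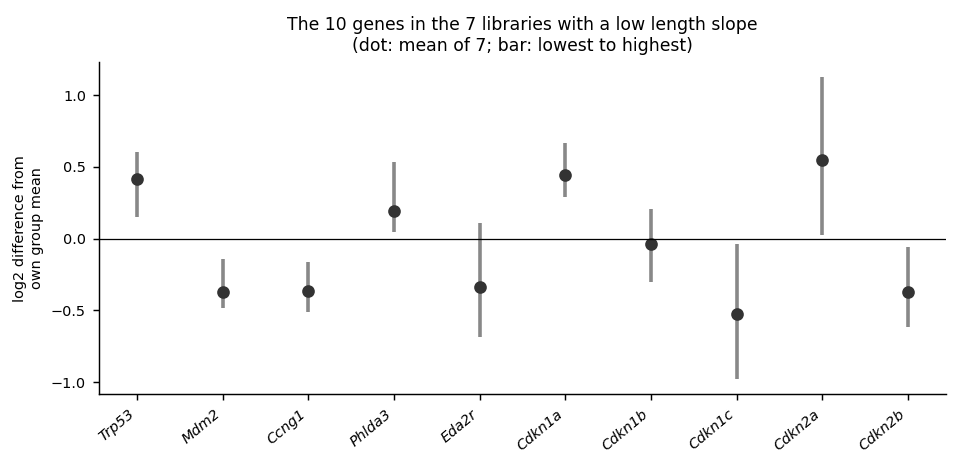
Level of each of the 10 genes in the 7 libraries whose long genes were low, as the log2 difference from the mean of its own group on the vertical axis. Dots are the mean of the 7 libraries and bars run from the lowest to the highest. Mdm2, Ccng1, Cdkn1c and Cdkn2b sit below 0 in all 7, and Trp53, Phlda3, Cdkn1a and Cdkn2a above 0 in all 7.

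Levels between genes were compared per kilobase of transcript. Over the 36 libraries, the median was highest for Phlda3 at 242 CPM per kb, followed by Cdkn1a at 109.9, Ccng1 at 57.7, Trp53 at 40.7 and Cdkn2a at 30.5. Lower medians were those of Cdkn2b at 11.1, Cdkn1b at 7.52, Mdm2 at 7.51, Cdkn1c at 1.84 and Eda2r at 1.60 CPM per kb. The ranges of neighbours in this order overlapped at every step, and the order of the medians was another one within lines. In PKP4-KO, Trp53 (47.1) stood above Ccng1 (33.6), in Rescue Cdkn2a (52.9) above Trp53 (41.4) and Mdm2 (11.7) above Cdkn1b (7.59), and in WT Eda2r (2.09) above Cdkn1c (0.381).

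**Figure D3:**
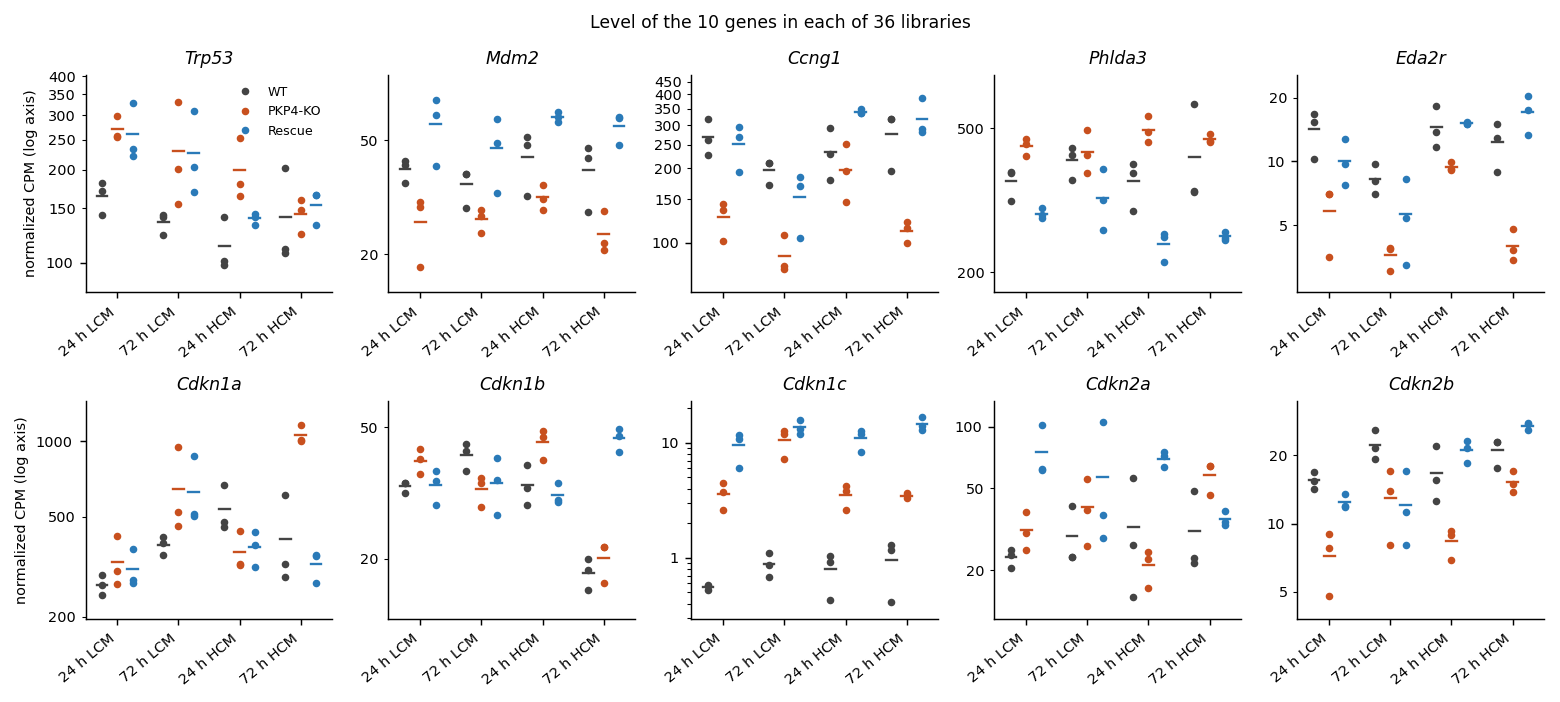
Normalized CPM of the 10 genes in each of the 36 libraries, on log axes, by culture condition (horizontal axis) and line (colour). Each point is 1 library and each bar the mean of 3. On this TMM scale, Cdkn1c is lowest in WT in every condition and Cdkn1a is highest in PKP4-KO at 72 h HCM. Cdkn1b is lowest in WT and PKP4-KO at 72 h HCM.

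The first question was how the lines differ. Of the 10 genes, those called for PKP4-KO against WT are given by condition, with the share of all tested genes in brackets. After 24 h in HCM, 4 were higher (all genes 20.7%) and 1 lower (22.2%), 5 of 10 in all against 42.8%, and 7 of the 10 had libraries that did not overlap (46.7%). Then, after 72 h in HCM, 2 were higher (all genes 21.9%) and 3 lower (29.9%), 5 of 10 in all against 51.8%, and 5 of the 10 had libraries that did not overlap (58.2%). For cultures of 24 h in LCM, 2 were higher (all genes 19.7%) and 4 lower (20.6%), 6 of 10 in all against 40.2%, and 9 of the 10 had libraries that did not overlap (50.6%). For those of 72 h in LCM, 3 were higher (all genes 21.3%) and 4 lower (23.8%), 7 of 10 in all against 45.1%, and 8 of the 10 had libraries that did not overlap (55.2%). The same counts follow for Rescue against WT. After 24 h in HCM, 1 was higher (all genes 11.8%) and 1 lower (11.4%), 2 of 10 in all against 23.2%, and 6 of the 10 had libraries that did not overlap (35.1%). Then, after 72 h in HCM, 2 were higher (all genes 19.5%) and 1 lower (16.7%), 3 of 10 in all against 36.2%, and 5 of the 10 had libraries that did not overlap (52.9%). For cultures of 24 h in LCM, 2 were higher (all genes 13.5%) and 0 lower (11.4%), 2 of 10 in all against 24.8%, and 5 of the 10 had libraries that did not overlap (40.7%). For those of 72 h in LCM, 3 were higher (all genes 17.9%) and 1 lower (14.6%), 4 of 10 in all against 32.4%, and 4 of the 10 had libraries that did not overlap (43.5%). Last come those for Rescue against PKP4-KO. After 24 h in HCM, 6 were higher (all genes 21.7%) and 2 lower (19%), 8 of 10 in all against 40.8%, and 9 of the 10 had libraries that did not overlap (51.2%). Then, after 72 h in HCM, 6 were higher (all genes 37.2%) and 2 lower (29.5%), 8 of 10 in all against 66.7%, and 9 of the 10 had libraries that did not overlap (75.5%). For cultures of 24 h in LCM, 6 were higher (all genes 18.2%) and 1 lower (15.5%), 7 of 10 in all against 33.7%, and 7 of the 10 had libraries that did not overlap (41.6%). For those of 72 h in LCM, 2 were higher (all genes 23.3%) and 1 lower (18.3%), 3 of 10 in all against 41.5%, and 1 of the 10 had libraries that did not overlap (42.5%). The 3 comparisons share their samples, so they are not independent of each other. Which genes moved, and in which direction, follows by role.

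**Figure D4:**
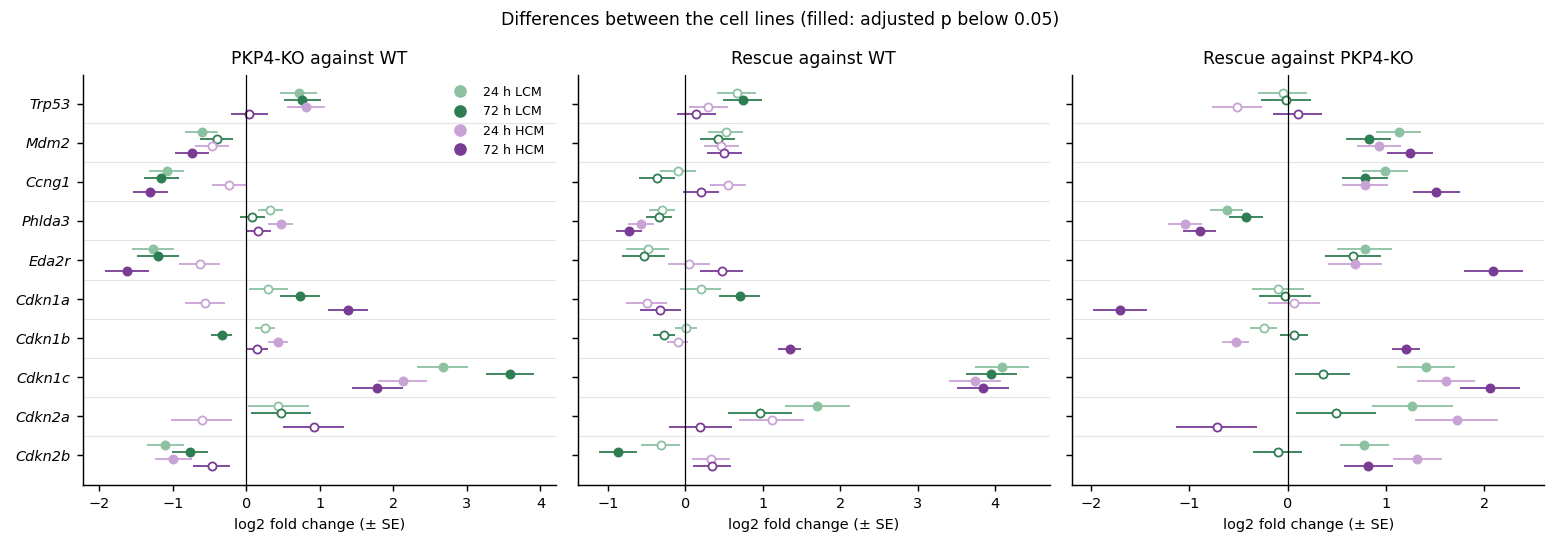
Log2 fold changes of the 10 genes between the lines, with the standard error as a bar, in the 4 culture conditions (colours). Filled circles have an adjusted p below 0.05. Cdkn1c is called in all 4 conditions for PKP4-KO against WT and for Rescue against WT, while Mdm2, Ccng1 and Eda2r lie below 0 in PKP4-KO against WT and above 0 in Rescue against PKP4-KO in all 4.

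Cdkn1c, which encodes p57 and is an imprinted gene expressed from the maternal chromosome, differed most from WT. Its counts in WT were 4 to 22 reads per library, and in HCM its level there was 1.03, 0.431 and 0.917 CPM after 24 h and 1.18, 1.29 and 0.41 after 72 h, in LCM 0.582, 0.525 and 0.573 after 24 h and 1.103, 0.871 and 0.682 after 72 h. The PKP4-KO libraries gave 4.24, 3.81 and 2.59 (24 h HCM), 3.30, 3.63 and 3.52 (72 h HCM), 2.61, 3.71 and 4.45 (24 h LCM) and 12.7, 7.30 and 11.999 (72 h LCM). In Rescue it was 11.9, 12.6 and 8.30, 16.8, 12.9 and 13.9, 10.8, 11.8 and 6.09 and 15.9, 13.3 and 11.97 in the same order. No library of PKP4-KO or Rescue fell within the range of WT in any condition. The annotation places all 2738 bases of Cdkn1c inside the lncRNA gene 4933417O13Rik on the same strand, but their exons share 0 bases and that gene had 0 to 2 reads per library, while an opposite-strand lncRNA gene that shares 625 exon bases with Cdkn1c had 0 to 5. PKP4-KO exceeded WT by a log2 fold change of 2.13 ± 0.33 at 24 h (adjusted p = 5.16e-06) and 1.78 ± 0.34 at 72 h (0.000103) in HCM, and in LCM by 2.67 ± 0.35 at 24 h (3.96e-07) and 3.59 ± 0.33 at 72 h (5.67e-10). At 72 h HCM, where PKP4-KO had 25 to 31 reads per library, the value ran from 0.972 to 2.017 over 14 alternatives. That call was kept in each of them, with adjusted p-values up to 0.0499. Rescue exceeded WT by 13.4-fold to 16.9-fold, with log2 fold changes from 3.74 ± 0.34 at 24 h HCM to 4.08 ± 0.35 at 24 h LCM and adjusted p-values of at most 1.49e-09. Genes higher in all 4 conditions made up 8.48% of all tested genes in PKP4-KO against WT and 5.13% in Rescue against WT. Rescue also lay above PKP4-KO at 24 h HCM (1.61 ± 0.29, adjusted p = 4.8e-05), 72 h HCM (2.06 ± 0.31, 1.97e-06) and 24 h LCM (1.41 ± 0.29, 0.000332), so the difference from WT was larger in Rescue than in PKP4-KO there, and at 72 h LCM the 2 lines gave an adjusted p of 0.319.

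Among the p53 targets, Ccng1, which encodes cyclin G1, and Eda2r, a death receptor of the tumour necrosis factor receptor family, were low in PKP4-KO. Ccng1 stood at 319, 228 and 261 CPM in WT and 102, 136 and 143 in PKP4-KO at 24 h LCM, at 171, 211 and 210.4 and 80.3, 78.2 and 107 at 72 h LCM, and at 317, 317 and 195 and 99.2, 122 and 115 at 72 h HCM. The lines did not overlap in these 3 conditions. Ccng1 was lower in PKP4-KO by log2 fold changes of -1.09 ± 0.23 (adjusted p = 0.000483), -1.16 ± 0.23 (0.00022) and -1.30 ± 0.24 (4.56e-05). At 24 h HCM the values were 292, 179 and 229 in WT and 195, 251 and 146 in PKP4-KO, which overlapped (adjusted p = 0.44). Ccng1 shares 3787 bases with Nudcd2 on the other strand, 114 of them in exons of both, and since the strand setting of the counting was not stated, reads from these bases are uncertain.

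Eda2r had few reads, 30 to 450 per library. Its levels were 16.8, 10.2 and 15.4 CPM in WT and 3.52, 6.98 and 6.98 in PKP4-KO at 24 h LCM, 7.02, 9.70 and 8.09 and 3.05, 3.86 and 3.8998 at 72 h LCM, and 12.9, 15.0 and 8.92 and 3.81, 4.80 and 3.41 at 72 h HCM. Again PKP4-KO lay below WT without overlap, by -1.27 ± 0.28 (adjusted p = 0.000573), -1.20 ± 0.29 (0.00124) and -1.63 ± 0.30 (5.7e-05). The means of Eda2r in 24 h HCM cultures, WT 14.6 ± 3.30 and PKP4-KO 9.38 ± 0.438 (SD, n = 3), gave no call (adjusted p = 0.062). Without TMM scaling the values at 72 h HCM became -2.12 for Ccng1 and -2.44 for Eda2r, still lower in PKP4-KO, and with an offset for gene length they were -1.23 and -1.24.

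Mdm2, the ubiquitin ligase that removes p53, showed its clearest difference between Rescue and PKP4-KO. For 24 h HCM its level was 62.6, 60.2 and 57.9 CPM in Rescue and 31.2, 35.02 and 28.6 in PKP4-KO, the later pairs being 48.1, 60.2 and 59.7 and 21.8, 28.3 and 20.7 at 72 h HCM, 68.9, 61.2 and 40.5 and 18.1, 30.4 and 29.3 at 24 h LCM, and 59.3, 32.6 and 48.9 and 27.2, 23.6 and 28.6 at 72 h LCM. Every Rescue library lay above every PKP4-KO library of the same condition. Rescue was higher by 0.93 ± 0.23 (adjusted p = 0.00148), 1.25 ± 0.23 (3.97e-05), 1.13 ± 0.23 (0.000252) and 0.82 ± 0.23 (0.00445) in that order, and the last call was lost without Rescue 72 h LCM replicate 1 (0.62, adjusted p = 0.0522). The value at 72 h HCM ran from 0.743 to 2.432 over the alternatives. Mdm2 in WT stood at 28.0 to 51.3 (median 39.6) CPM over the 12 libraries. PKP4-KO was called lower than WT at 72 h HCM (-0.74 ± 0.23, adjusted p = 0.0087) and 24 h LCM (-0.61 ± 0.23, 0.0329). The first of these calls, with libraries that overlapped between the lines, was lost without WT 72 h HCM replicate 2 (-0.61, adjusted p = 0.0562). Its value ran from -1.561 to -0.433 over the alternatives. The second was lost without PKP4-KO 24 h LCM replicate 1 (-0.41, adjusted p = 0.205), WT 24 h LCM replicate 1 (-0.56, adjusted p = 0.0998) or WT 24 h LCM replicate 3 (-0.58, adjusted p = 0.077). Rescue was not called against WT in any condition, with adjusted p-values from 0.0796 to 0.165.

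Ccng1 and Eda2r were higher in Rescue than in PKP4-KO as well. At 72 h HCM, Ccng1 stood at 281, 289 and 387 CPM in Rescue against 99.2, 122 and 115 in PKP4-KO (1.51 ± 0.24, adjusted p = 4.19e-06), and Eda2r at 13.3, 17.5 and 20.3 against 3.81, 4.80 and 3.41 (2.09 ± 0.30, 1.08e-06). These 2 differences, of 2.85-fold and 4.27-fold, were kept in all alternatives run. Ccng1 was also higher at 24 h LCM (0.99 ± 0.23, adjusted p = 0.00137). At 24 h HCM (0.79 ± 0.23, adjusted p = 0.00768) the call was lost without PKP4-KO 24 h HCM replicate 3 (0.61, adjusted p = 0.0639) or without TMM scaling (0.828, adjusted p = 0.0533). At 72 h LCM (0.79 ± 0.23, 0.00751), where the lines overlapped, it was lost without Rescue 72 h LCM replicate 1 (0.63, adjusted p = 0.0588). A fit of the compared groups alone also lost the 72 h LCM call (0.753, adjusted p = 0.0626). For Eda2r the calls at 24 h HCM (0.69 ± 0.27, adjusted p = 0.0445) and 24 h LCM (0.78 ± 0.28, 0.0298) were near the threshold. The first was lost without any 1 of its 6 libraries (log2 fold change 0.67 to 0.73), and the second without Rescue 24 h LCM replicate 1 (0.58, adjusted p = 0.175), Rescue 24 h LCM replicate 2 (0.81, adjusted p = 0.056) or PKP4-KO 24 h LCM replicate 1 (0.53, adjusted p = 0.185). Neither gene was called between Rescue and WT in any condition.

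Phlda3, which encodes a small inhibitor of Akt signalling, moved the other way. It stood at 251, 255 and 213 CPM in Rescue and 487, 457 and 539 in PKP4-KO at 24 h HCM, with 296, 377 and 398 in WT between them. At 24 h LCM the levels were 282, 289 and 300.2 in Rescue, 468, 452 and 419 in PKP4-KO and 316, 377 and 376 in WT. Rescue lay below PKP4-KO by -1.04 ± 0.17 at 24 h HCM (adjusted p = 1.06e-05) and -0.62 ± 0.17 at 24 h LCM (0.0047), both kept in all alternatives run. At 72 h the differences of -0.89 ± 0.17 in HCM (adjusted p = 4.9e-05) and -0.42 ± 0.17 in LCM (0.0445) depended on the scaling, with -0.15, adjusted p = 0.242 and -0.13, adjusted p = 0.371 under an offset for gene length, and in HCM the direction turned without TMM scaling (0.28, adjusted p = 0.0208). That in LCM was lost without any of 4 libraries, down to -0.29, adjusted p = 0.236 without Rescue 72 h LCM replicate 1, the others being Rescue replicate 3 (-0.41, adjusted p = 0.0975) and PKP4-KO replicates 1 (-0.44, adjusted p = 0.07) and 2 (-0.31, adjusted p = 0.193). Against WT, Rescue was lower at 24 h HCM (-0.57 ± 0.17, adjusted p = 0.0127) and 72 h HCM (-0.73 ± 0.17, 0.00132). The former call was lost without Rescue 24 h HCM replicate 3 (-0.49, adjusted p = 0.0684) or WT 24 h HCM replicate 3 (-0.49, adjusted p = 0.0675). The latter call was lost without TMM scaling (-0.26, adjusted p = 0.053). PKP4-KO was called above WT at 24 h HCM only (0.47 ± 0.17, adjusted p = 0.0249), which was lost without PKP4-KO 24 h HCM replicate 3 (0.40, adjusted p = 0.0911) or WT 24 h HCM replicate 1 (0.35, adjusted p = 0.148).

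Trp53 itself ranged over 98.2 to 202 (median 141) CPM in WT, 124 to 332 (median 190.3) in PKP4-KO and 132 to 327 (median 167) in Rescue. At 24 h HCM its level was 98.2, 140.2 and 101 in WT and 164, 179.6 and 252 in PKP4-KO, at 24 h LCM 142, 181 and 170.2 and 298, 257 and 254, and at 72 h LCM 143, 123 and 141 and 155, 332 and 201. PKP4-KO was higher without overlap in these conditions, by 0.81 ± 0.25 (adjusted p = 0.0102), 0.71 ± 0.25 (0.0249) and 0.76 ± 0.25 (0.0159). At 72 h HCM the means were 140.1 ± 53.9 and 144 ± 18.4 (SD, n = 3; adjusted p = 0.915). Each of the 3 calls was lost on leaving out 1 library, that at 24 h HCM without PKP4-KO replicate 3 (0.60, adjusted p = 0.0793) or WT replicate 1 (0.71, adjusted p = 0.0521), that at 24 h LCM without PKP4-KO replicate 1 (0.64, adjusted p = 0.0834) or WT replicate 1 (0.62, adjusted p = 0.107), and that at 72 h LCM without PKP4-KO replicate 2 (0.39, adjusted p = 0.23) or WT replicate 2 (0.69, adjusted p = 0.0661). With all 7 libraries of low length slope left out together, the values were 0.76, adjusted p = 0.000114 at 24 h HCM, 0.61, adjusted p = 0.00047 at 24 h LCM and 0.38, adjusted p = 0.0181 at 72 h LCM. Without TMM scaling the call at 72 h LCM was lost (0.34, adjusted p = 0.111). Rescue was called above WT at 72 h LCM (0.74 ± 0.25, adjusted p = 0.0239), but not without Rescue replicate 2 (0.46, adjusted p = 0.211), WT replicate 2 (0.67, adjusted p = 0.0896) or WT replicate 3 (0.77, adjusted p = 0.0521). Trp53 overlaps Wrap53 on the other strand by 1483 bases, 263 of them in exons of both, so part of its count could belong to that gene. Mdm2 and Cdkn1b share 348 and 237 exon bases with opposite-strand lncRNA genes.

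Cdkn1a, which encodes p21 and is the best known p53 target, was distinguished by 1 group. At 72 h HCM it stood at 1165, 1009.7 and 999.6 CPM in PKP4-KO, against 289, 324 and 610.4 in WT and 353, 349.7 and 274 in Rescue. On this TMM scale the 3 PKP4-KO libraries were the highest of all 36. That rank rests on the scaling, as the TMM factors of these libraries were 0.481 to 0.546. Cdkn1a shares 504 exon bases with Dino on the other strand (0 to 8 reads per library) and 249 with another opposite-strand lncRNA gene that was not analysed here. PKP4-KO exceeded WT by 2.60-fold (log2 fold change 1.38 ± 0.27, adjusted p = 0.000126), and Rescue lay 3.25-fold below PKP4-KO (-1.70 ± 0.27, 5.73e-06). Both calls held in all alternatives run, although the values shrank to 0.68 and -0.52 without TMM scaling, a setting under which the median log2 fold change of all genes went from -0.072 to -0.833 and from 0.200 to 1.371 in these comparisons. After 24 h in HCM, WT had 478, 672 and 457, PKP4-KO 323, 325 and 439 and Rescue 435, 386 and 316, and no pair of lines was called. In LCM at 72 h, PKP4-KO had 460.0, 946 and 523, Rescue 506, 874 and 511 and WT 395, 353 and 416. Both lines were called above WT there, PKP4-KO by 0.73 ± 0.27 (adjusted p = 0.0278) and Rescue by 0.70 ± 0.27 (0.0447), but the second replicate of each line was far above the other two, and leaving it out gave 0.34, adjusted p = 0.338 and 0.39, adjusted p = 0.329. Both replicates were among the 7 libraries of low length slope, in all of which Cdkn1a lay above its group mean. With all 7 left out together both calls were kept, and the part of the slope was not tested. The calls were also lost without WT replicate 1 (0.74, adjusted p = 0.0549 and 0.70, adjusted p = 0.093) or WT replicate 2 (0.66, adjusted p = 0.0958 and 0.63, adjusted p = 0.136), and that of Rescue without WT replicate 3 (0.75, adjusted p = 0.0745).

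Cdkn1b, which encodes p27, differed little between WT and PKP4-KO and stood out in Rescue at 72 h HCM. There it was 47.1, 49.3 and 42.1 CPM in Rescue, 16.1, 20.02 and 18.5 in WT and 16.9, 21.7 and 21.7 in PKP4-KO. Rescue exceeded WT by 1.34 ± 0.14 (adjusted p = 3.73e-08) and PKP4-KO by 1.20 ± 0.14 (6.12e-08), and both calls were kept in all alternatives run. At 24 h HCM the order was another one, with 39.8, 48.7 and 46.5 in PKP4-KO, 32.8, 38.4 and 29.2 in WT and 30.02, 33.9 and 29.6 in Rescue. Rescue was below PKP4-KO by -0.53 ± 0.14 (adjusted p = 0.00306), a call lost without TMM scaling (-0.467, adjusted p = 0.0871). PKP4-KO was called above WT at 24 h HCM (0.43 ± 0.14, 0.0137) and below it at 72 h LCM (-0.34 ± 0.14, 0.0499). Both differences were small, and the second was near the threshold. The first was lost without PKP4-KO replicate 2 (0.36, adjusted p = 0.069) or WT replicate 3 (0.34, adjusted p = 0.0887). The second was lost without PKP4-KO replicate 1 (-0.26, adjusted p = 0.186) or 2 (-0.37, adjusted p = 0.0725) or WT replicate 2 (-0.28, adjusted p = 0.165) or 3 (-0.32, adjusted p = 0.111). Of 15 alternatives each, 5 lost the first call and 10 the second, the latter also with an offset for gene length (-0.22, adjusted p = 0.171).

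The INK4 genes Cdkn2a and Cdkn2b lie next to each other on chromosome 4. Cdkn2a has 2 coding transcripts with different first exons, Cdkn2a-201 at chr4:89200223-89200429 and Cdkn2a-202 at chr4:89212571-89212890 (GRCm39, - strand). They encode p16 and p19ARF, an inhibitor of Mdm2, and counts per gene cannot separate them. At 24 h HCM, Cdkn2a was 74.9, 71.7 and 63.4 CPM in Rescue and 24.5, 16.4 and 22.8 in PKP4-KO, 3.30-fold higher in Rescue (1.72 ± 0.42, adjusted p = 0.00151). At 24 h LCM it was 61.6, 62.5 and 102 in Rescue, 38.3, 30.3 and 25.1 in PKP4-KO and 20.4, 23.8 and 25.1 in WT, and Rescue was above both, by 1.70 ± 0.42 against WT (adjusted p = 0.00319) and 1.27 ± 0.41 against PKP4-KO (0.0182). The last of these was lost without Rescue replicate 3 (0.99, adjusted p = 0.09) or PKP4-KO replicate 2 (1.25, adjusted p = 0.0553) or 3 (1.14, adjusted p = 0.0741). No condition gave a call between PKP4-KO and WT, with adjusted p-values from 0.0671 to 0.423, and the WT libraries spread widely at 24 h HCM (14.7, 56.2 and 26.5).

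Cdkn2b was lower in PKP4-KO than in the other lines at 24 h. An opposite-strand lncRNA gene spans 6073 bases of it, with 0 exon bases shared and 0 to 4 reads per library. In 24 h HCM cultures WT had 15.6, 12.6 and 22.1 CPM, PKP4-KO 9.32, 8.91 and 6.94 and Rescue 23.0, 18.6 and 21.5, and in 24 h LCM cultures WT had 15.4, 14.2 and 16.9, PKP4-KO 4.79, 7.78 and 8.99 and Rescue 13.5, 11.8 and 11.9. PKP4-KO did not overlap either of the other lines at 24 h. It lay below WT by -0.99 ± 0.25 in HCM (adjusted p = 0.00176) and -1.102 ± 0.25 in LCM (0.000834), and Rescue lay above PKP4-KO by 1.32 ± 0.25 (8.7e-05) and 0.78 ± 0.25 (0.016), the last lost without Rescue replicate 1 (0.72, adjusted p = 0.0606) or PKP4-KO replicate 1 (0.57, adjusted p = 0.118). That last call was also lost with an offset for gene length (0.850, adjusted p = 0.0551) and without TMM scaling (0.851, adjusted p = 0.0527). At 72 h HCM Rescue exceeded PKP4-KO by 0.82 ± 0.25 (adjusted p = 0.00527), with 25.7, 27.6 and 27.4 against 13.7, 17.0 and 15.0 CPM, and the value became 2.00 without TMM scaling. At 72 h LCM both lines were called below WT, PKP4-KO by -0.77 ± 0.25 (adjusted p = 0.0127) and Rescue by -0.87 ± 0.25 (0.00704). Leaving out PKP4-KO replicate 2 gave -0.52, adjusted p = 0.107 for the first, leaving out WT replicate 1 -0.63, adjusted p = 0.0649, and leaving out Rescue replicate 2 -0.65, adjusted p = 0.0615 for the second.

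The second question was what changed between 24 h and 72 h of culture. In WT, 1 gene was called in HCM, where 17.8% of all genes were, and 0 in LCM, where 9.96% were. In WT LCM, 3 genes had an unadjusted p below 0.05 in edgeR's quasi-likelihood test and DESeq2 called 1. In PKP4-KO, 6 genes were called in HCM (3 higher and 3 lower at 72 h) against 55.8% of all genes, and 3 in LCM (all higher) against 26.1%. In Rescue the counts were 1 against 24.3% in HCM and 2 against 9.81% in LCM.

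**Figure D5:**
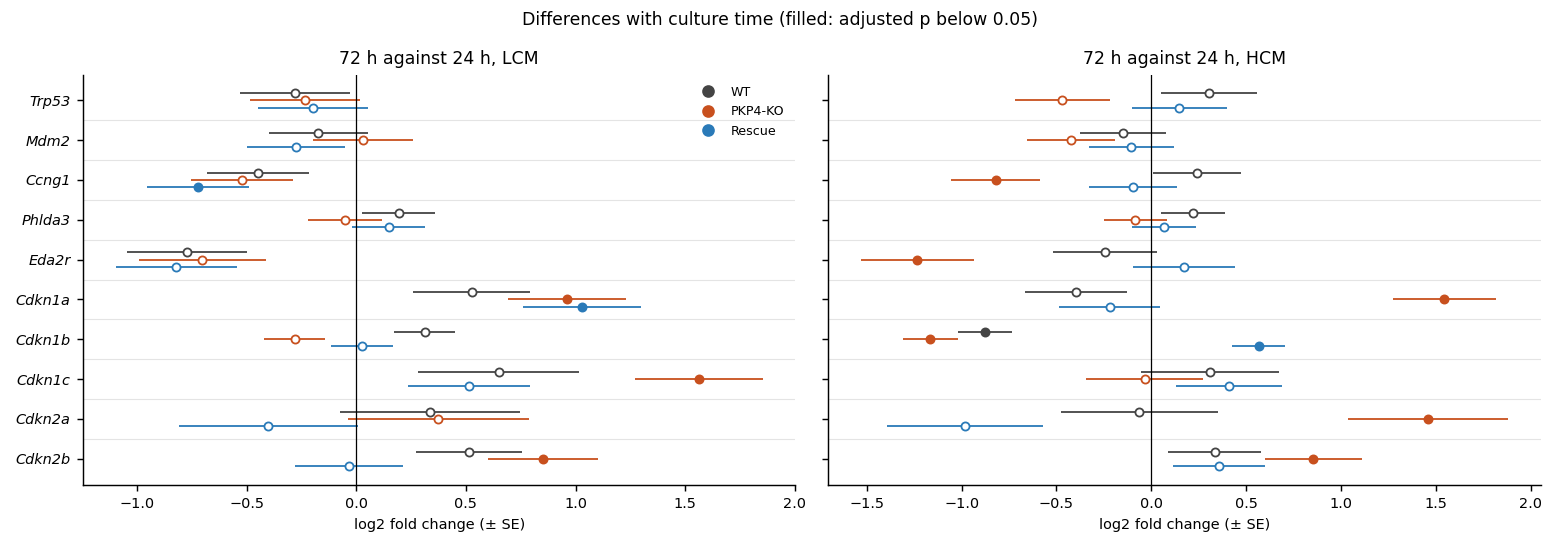
Log2 fold changes of the 10 genes at 72 h against 24 h in LCM (left) and HCM (right), with standard errors as bars, for WT, PKP4-KO and Rescue (colours). Filled circles have an adjusted p below 0.05. In HCM, Cdkn1b lies below 0 in WT and PKP4-KO and above 0 in Rescue, and Cdkn1a is called in PKP4-KO alone of the 3 lines.

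Cdkn1a rose in PKP4-KO from 323, 325 and 439 CPM at 24 h to 1165, 1009.7 and 999.6 at 72 h in HCM, 2.92-fold (1.54 ± 0.27, adjusted p = 2.76e-05). All 15 alternatives kept this call, but the log2 fold change ran from 0.493 to 1.735 among them. The change differed from those of the other lines, by 1.94 ± 0.38 from that of WT (adjusted p = 0.000301) and by -1.76 ± 0.38 for Rescue minus PKP4-KO (0.000428), where 26.6% and 47.2% of all genes differed. The 2 differences were kept in all alternatives run. In LCM, Cdkn1a also rose in PKP4-KO (0.96 ± 0.27, adjusted p = 0.00828) and Rescue (1.03 ± 0.27, 0.0106), with a high second replicate of low length slope in both at 72 h. The LCM calls were lost without that replicate (0.57, adjusted p = 0.132 and 0.72, adjusted p = 0.123), without PKP4-KO 24 h replicate 3 (0.83, adjusted p = 0.0584), or without Rescue 24 h replicate 1 (0.95, adjusted p = 0.0613) or 2 (0.96, adjusted p = 0.0571).

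Cdkn1b changed with time in HCM in all 3 lines, in different directions. It fell from 32.8, 38.4 and 29.2 to 16.1, 20.02 and 18.5 CPM in WT (-0.88 ± 0.14, adjusted p = 5.84e-05) and from 39.8, 48.7 and 46.5 to 16.9, 21.7 and 21.7 in PKP4-KO (-1.16 ± 0.14, 1.37e-07). In Rescue it rose from 30.02, 33.9 and 29.6 to 47.1, 49.3 and 42.1 (0.57 ± 0.14, 0.00325). None of the 3 pairs of groups overlapped. The Rescue change differed from that of WT by 1.45 ± 0.20 (adjusted p = 3.4e-05), where 10.5% of all genes differed, and from that of PKP4-KO by 1.73 ± 0.20 (8.59e-08). In LCM, Cdkn1b was not called in any line.

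The other genes called with time in HCM were called in PKP4-KO. Ccng1 fell from 195, 251 and 146 to 99.2, 122 and 115 CPM (-0.82 ± 0.23, adjusted p = 0.0042) and Eda2r from 9.88, 9.16 and 9.09 to 3.81, 4.80 and 3.41 (-1.23 ± 0.30, 0.00103). The 3 libraries of PKP4-KO at 72 h HCM had the lowest length slope of the 12 groups, and Ccng1 and Eda2r lay low, and Cdkn1a high, in other libraries of low slope, as given above. With an offset for gene length Ccng1 (-0.69, adjusted p = 0.0105), Eda2r (-0.77, adjusted p = 0.00886) and Cdkn1a (1.67, adjusted p = 1.68e-05) were still called. The Ccng1 change differed from that of WT (-1.06 ± 0.33, adjusted p = 0.0169), a call lost without PKP4-KO 24 h HCM replicate 2 (-0.86, adjusted p = 0.0723), WT 24 h HCM replicate 2 (-0.91, adjusted p = 0.0608) or WT 72 h HCM replicate 1 (-0.96, adjusted p = 0.0503) or 2 (-0.96, adjusted p = 0.0521), and the Eda2r change differed from that of Rescue (1.41 ± 0.40, 0.00552). Cdkn2a rose from 24.5, 16.4 and 22.8 to 64.1, 46.5 and 64.4 (1.46 ± 0.42, adjusted p = 0.00454) and Cdkn2b from 9.32, 8.91 and 6.94 to 13.7, 17.0 and 15.0 (0.85 ± 0.25, 0.00572), but an offset for gene length left neither call (0.57, adjusted p = 0.0744 and 0.11, adjusted p = 0.81), nor did library sizes without TMM factors (0.41, adjusted p = 0.268 and -0.23, adjusted p = 0.55). In Rescue, Cdkn2a went from 74.9, 71.7 and 63.4 to 33.3, 34.2 and 38.9, which was not called (adjusted p = 0.085), and its change differed from that of PKP4-KO by -2.44 ± 0.59 (0.00131), which was kept in all alternatives run.

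In LCM, Cdkn1c rose in PKP4-KO from 2.61, 3.71 and 4.45 to 12.7, 7.30 and 11.999 CPM, 2.96-fold (1.56 ± 0.29, adjusted p = 0.000168), and this was kept in all alternatives run. Cdkn2b rose in PKP4-KO LCM with overlapping groups (0.85 ± 0.25, adjusted p = 0.0122). This call was lost without PKP4-KO 72 h LCM replicate 1 (0.61, adjusted p = 0.113). It was also lost without PKP4-KO 24 h LCM replicate 1 (0.63, adjusted p = 0.0764). An offset for gene length did not keep it (0.55, adjusted p = 0.256). Nor did library sizes without TMM factors (0.47, adjusted p = 0.278). A fit of the compared groups alone lost it too (0.92, adjusted p = 0.108). Ccng1 fell in Rescue LCM (-0.72 ± 0.23, adjusted p = 0.0466), which was lost without Rescue 72 h LCM replicate 2 (-0.51, adjusted p = 0.257) or 3 (-0.81, adjusted p = 0.0681) or Rescue 24 h LCM replicate 1 (-0.59, adjusted p = 0.213) or 2 (-0.68, adjusted p = 0.14). For LCM, no difference between lines in the change with time was called, where 5.25% (PKP4-KO and WT), 3.91% (Rescue and WT) and 5.25% (Rescue and PKP4-KO) of all genes were, edgeR's quasi-likelihood test gave unadjusted p-values below 0.05 for 1, 0 and 2 of the 10 genes, and DESeq2 called 1, 0 and 0.

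Calcium was compared within each line and time. The share of all genes called was 14.2% in WT at 24 h and 21.4% at 72 h, for PKP4-KO 2.83% and 32.6%, for Rescue 12% and 24.9%, and the members called numbered 1, 1, 0, 4, 2 and 5 in the same order. For PKP4-KO at 24 h, where 0 members were called, 2 had an unadjusted p below 0.05 in edgeR's quasi-likelihood test and DESeq2 called 0. Cdkn1b was lower in HCM at 72 h in WT, 16.1, 20.02 and 18.5 against 36.9, 44.4 and 42.3 CPM (-1.18 ± 0.14, adjusted p = 3.93e-07), and in PKP4-KO, 16.9, 21.7 and 21.7 against 28.7, 34.0 and 35.1 (-0.70 ± 0.14, 0.000434). In Rescue at 72 h the HCM level of Cdkn1b was the higher one (0.44 ± 0.14, adjusted p = 0.0208), a call lost without Rescue HCM replicate 1 (0.43, adjusted p = 0.0589) or 2 (0.39, adjusted p = 0.0868) or Rescue LCM replicate 2 (0.30, adjusted p = 0.17), and without the 7 libraries of low length slope (0.31, adjusted p = 0.0953). Cdkn1c in PKP4-KO was lower in HCM at 72 h, 3.30, 3.63 and 3.52 against 12.7, 7.30 and 11.999 (-1.62 ± 0.31, 0.00018), with no overlap. In Rescue at 72 h, Ccng1 (1.06 ± 0.23, adjusted p = 0.00128), Eda2r (1.58 ± 0.28, 0.000108) and Cdkn2b (1.148 ± 0.25, 0.000937) were higher in HCM, each without overlap and in all alternatives run. Eda2r for example stood at 13.3, 17.5 and 20.3 CPM in HCM and 8.28, 3.24 and 5.41 in LCM.

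The remaining calcium calls were less firm. Cdkn1a was higher in HCM in WT at 24 h, 478, 672 and 457 against 245, 294 and 268 CPM (0.99 ± 0.27, adjusted p = 0.0108), lost without WT HCM replicate 2 (0.80, adjusted p = 0.0805) or WT LCM replicate 1 (0.93, adjusted p = 0.0518). At 72 h it was higher in HCM in PKP4-KO (0.72 ± 0.27, adjusted p = 0.0399) and lower in Rescue (-0.95 ± 0.27, 0.00946). The PKP4-KO call was lost without any 1 of 5 of its 6 libraries, down to 0.52, adjusted p = 0.192 without LCM replicate 1, and under library sizes without TMM factors (0.07, adjusted p = 0.765). The Rescue call was lost without HCM replicate 3 (-0.84, adjusted p = 0.0537) or LCM replicate 2 (-0.65, adjusted p = 0.108). Trp53 was lower in HCM in Rescue at 24 h, 144, 141 and 133 against 221, 233 and 327 (-0.91 ± 0.25, adjusted p = 0.0157), not without HCM replicate 2 (-0.91, adjusted p = 0.05) or 3 (-0.87, adjusted p = 0.0596) or LCM replicate 3 (-0.71, adjusted p = 0.113). In PKP4-KO at 72 h Trp53 (-0.68 ± 0.25, adjusted p = 0.041) overlapped between the media, and DESeq2 (-0.57, adjusted p = 0.0881) and the fit without LCM replicate 2 (-0.32, adjusted p = 0.328) or any 1 of the 3 HCM libraries did not call it. Cdkn2b in Rescue at 24 h (0.76 ± 0.25, 0.0409) was lost without any 1 of its 6 libraries (log2 fold change 0.69 to 0.84).

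The other p53 effectors on the list of 32, of which 31 could be tested, moved in both directions. Between PKP4-KO and WT in HCM, 12 were higher and 6 lower at 24 h (all genes 20.7% and 22.2%) and 6 and 13 at 72 h (21.9% and 29.9%), in LCM 10 and 7 at 24 h (19.7% and 20.6%) and 8 and 8 at 72 h (21.3% and 23.8%). Of the 31, the counts lower at 24 h in both media, higher at 72 h HCM, and both higher and lower at 72 h LCM were near the shares of all genes. The counts went with median log2 fold changes of 0.355, -0.146, 0.233 and -0.091 against medians of -0.002, -0.072, 0.003 and 0.025 over all genes. Higher in PKP4-KO in all 4 conditions were Gdf15, a stress cytokine (log2 fold change 2.17 to 4.10, with WT group means of at most 0.268 CPM), Ak1, adenylate kinase 1 (0.74 to 2.40), and Gadd45a, a growth arrest and DNA damage gene (0.59 to 1.29). Lower in all 4 were Pmaip1, which encodes the pro-apoptotic protein Noxa (-2.26 to -1.012), the polo-like kinase Plk2 (-1.19 to -0.74) and the RNA-binding protein gene Zmat3 (-1.151 to -0.45). In Rescue against WT, Gadd45a (1.45 to 2.82), Plk3 (1.21 to 3.10) and the stress gene Sesn2 (1.011 to 1.42) were higher in all 4 conditions and Sesn1 was lower (-4.28 to -1.16).

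Of the 14 listed regulators of p53, 3 were lower and 1 higher in PKP4-KO than in WT after 24 h in HCM (all genes 22.2% and 20.7%) and 8 and 1 after 72 h (29.9% and 21.9%), and in LCM 3 and 1 after 24 h (20.6% and 19.7%) and 6 and 1 after 72 h (23.8% and 21.3%). The counts lower at 24 h were thus near the share of all genes. Mdm4, the partner of Mdm2, was lower in PKP4-KO at 72 h HCM (-0.77 ± 0.29, adjusted p = 0.0303), 24 h LCM (-0.79 ± 0.28, 0.0253) and 72 h LCM (-0.90 ± 0.28, 0.0109), and the p53 phosphatase gene Ppm1d was lower at 24 h HCM (-0.55 ± 0.18, 0.0155), 72 h HCM (-0.50 ± 0.19, 0.0276) and 72 h LCM (-0.52 ± 0.18, 0.0219). Trp63, whose product p63 maintains basal keratinocytes, was higher in PKP4-KO than in WT at 24 h HCM (1.33 ± 0.28, 0.000279), and its other 3 conditions were not called. The 2 INK4 genes outside the 10, Cdkn2c (p18) and Cdkn2d (p19INK4d), differed strongly. Cdkn2c was higher in PKP4-KO than in WT in all 4 conditions, from 1.31 ± 0.24 at 72 h HCM (adjusted p = 5.64e-05) to 3.05 ± 0.25 at 24 h HCM (6.04e-11), with means of 83.5 ± 23.1 and 10.03 ± 2.27 CPM at the latter (SD, n = 3). Cdkn2d was lower in Rescue than in WT in all 4, with log2 fold changes of -1.59 to -0.56.

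The cell cycle genes themselves moved with the lines and with time. Of 15 proliferation genes, 13 were higher in PKP4-KO than in WT at 24 h HCM, where 20.7% of all genes were (median log2 fold change 1.161 against -0.002 over all genes), and all 15 fell in PKP4-KO between 24 h and 72 h HCM, where 31.4% of all genes did (median -1.732 against -0.095). In WT HCM 9 of the 15 fell with time (all genes 8.69%), and in Rescue HCM 1 did (10.7%). The proliferation marker Mki67 fell in PKP4-KO in HCM (-2.33 ± 0.43, adjusted p = 5.39e-05), while it stood at 27.2 ± 8.45 and 25.6 ± 14.4 CPM at 24 h and 72 h HCM in WT and at 19.4 ± 6.29 and 26.2 ± 11.2 in Rescue (SD, n = 3). Ccnd1, which encodes cyclin D1, fell in PKP4-KO in HCM (-1.60 ± 0.12, 6.79e-12) and in all 3 lines in LCM, from -1.34 in PKP4-KO to -0.48 in Rescue. PKP4-KO at 72 h HCM had TMM factors of 0.481 to 0.546 and the lowest length slope. No alternatives are given for these listed genes, so how far their falls depend on scaling or gene length was not tested. Suprabasal keratinocyte markers summed to 41.4 to 1047 CPM in WT, 50.1 to 8543 in PKP4-KO and 71.8 to 689 in Rescue, and their part in the changes of the 10 genes was not tested.

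For 8 of the 10 genes, the 2 protein-coding genes with the most similar level over the 12 group means were found by Pearson's r on log2 levels, given here as a description of 12 points that share libraries. They were Plec (r = 0.935) and Acin1 (0.932) for Trp53, Cyp2c55 (0.979) and Fzd5 (0.975) for Mdm2, Ano3 (0.979) and Usp34 (0.963) for Ccng1, and Nrm (0.954) and Duox1 (0.933) for Phlda3. For Eda2r they were Ipo7 (0.962) and Lnpk (0.96), and for Cdkn1a Hcar2 (0.942) and Trappc3 (0.913). With Cdkn1c they were Artn (0.97) and Psme1 (0.963), and with Cdkn2a Gstk1 (0.923) and Itprip (0.922). The search left out the 10 genes themselves. The group means ran from 0 to 0.949 CPM for Ano3, from 0.0156 to 5.03 for Cyp2c55 and from 0 to 7.96 for Artn, so their r rests in part on groups with few or no reads.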

How the data were processed

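Poly(A) RNA of 36 keratinocyte cultures was sequenced with a strand-specific protocol. The authors aligned the reads with HISAT2 2.1.0 to the mouse genome GRCm39 extended by the transgene, removed secondary alignments with SAMtools 1.10, and deposited raw read counts per gene from featureCounts 2.0.0. The strand setting of the counting was not given in the sources used here, so genes that overlap on opposite strands may share reads. Groups were taken from the labels. Counts were filtered by expression over the 12 groups, scaled by TMM and fitted in 1 model of 12 group means (24 residual degrees of freedom) with the quasi-likelihood test of edgeR 4.0.16 in R 4.3.3, with Benjamini-Hochberg adjustment within each of 30 comparisons. Same-numbered libraries of different groups were compared by their deviations from the group means (198 pairs, r from -0.64 to 0.73, 60 of them over 0.1). Differently numbered libraries were not compared in this way, so a deviation shared by number was not tested. The numbers were not used as pairs. The 10 genes and the gene lists were chosen with earlier results of these data known. Further genes named from the lists were those called in 1 direction in all 4 conditions with the largest mean change, besides a short set always shown. Alternatives were DESeq2 1.42.0, RLE factors, no TMM factors, other filters, fits of the compared groups alone, a replicate block and leaving out each library, and, added after seeing the data, an offset for gene length and a fit without the 7 libraries of low length slope. They are given for the 10 genes and not for the further genes of the lists. The transgene was not analysed here, and the genes most similar to Cdkn1b and Cdkn2b are not reported here.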

Additional observations from a re-analysis of the deposited data

Results flagged for a closer look

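The change between 24 h and 72 h of culture in HCM was compared between lines by the interaction term of the model, tested with edgeR's quasi-likelihood test. For PKP4-KO minus WT, where 26.6% of all genes differed, 2 of the 10 did, and the log2 difference was -1.064 for Ccng1 (adjusted p = 0.0169) and 1.941 for Cdkn1a (adjusted p = 0.000301). For Rescue minus WT (1 of 10, all genes 10.5%), it was 1.445 for Cdkn1b (adjusted p = 3.4e-05). For Rescue minus PKP4-KO (4 of 10, all genes 47.2%), it was 1.405 for Eda2r (adjusted p = 0.00552), -1.764 for Cdkn1a (adjusted p = 0.000428), 1.731 for Cdkn1b (adjusted p = 8.59e-08) and -2.442 for Cdkn2a (adjusted p = 0.00131). None of these counts exceeded the share of all genes. The Rescue against PKP4-KO and the PKP4-KO against WT differences share the PKP4-KO 72 h HCM libraries, whose TMM factors were the lowest of the series.

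At 72 h, the effect of calcium had opposite signs between lines for 2 genes, with no overlap of the media except for Cdkn1a in WT, and the difference between lines was not tested. Cdkn1a was higher in HCM in PKP4-KO (log2 fold change 0.718) and lower in Rescue (-0.954), while in WT (0.071) the media overlapped. Cdkn1b was lower in HCM in WT (-1.181) and PKP4-KO (-0.699) and higher in Rescue (0.44).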

How the results depend on the processing

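Of 93 calls of the 10 genes over 30 comparisons, 54 were kept in every alternative run, 39 were lost in at least 1 and 11 of these only on leaving out a library. The losses named with each gene above are mainly those on leaving out a library and do not list every alternative. Calls lost numbered 1 with DESeq2, 3 with RLE factors, 18 with library sizes without TMM factors, 9 without a filter, 17 with only the groups compared, 10 with the offset for gene length and 2 without the 7 libraries of low length slope, and 2 of 80 with at least 10 counts in every library. The sign of 2 calls reversed without TMM factors, Phlda3 in Rescue against PKP4-KO at 72 h HCM (0.282 in place of -0.894) and Cdkn2b at 72 h against 24 h in PKP4-KO HCM (-0.226 in place of 0.855). That setting moved the share of higher genes among those called from 42.2% to 13.5% for PKP4-KO against WT in 72 h HCM cultures and from 55.8% to 84.7% in Rescue against PKP4-KO. The replicate block lost 4 of the 93 calls and moved 1 count, for time in Rescue LCM, to 1 from 2, and it changed no other count by over 1.5 times. The labels tie these libraries only by a number, and whether same-numbered libraries belong together was not tested.

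Counts of members called that moved by over 1.5 times follow, each with the main count after it, and their causes were not tested. Without TMM factors they were 9 (5) for PKP4-KO against WT at 72 h HCM, 4 (2) for Rescue against WT at 24 h LCM, 5 (8) for Rescue against PKP4-KO at 24 h HCM, 2 (1) for time in WT HCM, 7 (3) in PKP4-KO LCM, 2 (1) in Rescue HCM and 1 (2) in Rescue LCM, 2 (1) for calcium in WT at 24 h, 2 (1) in WT at 72 h and 1 (2) in Rescue at 24 h, 7 (2) for the difference of the time effect between PKP4-KO and WT in HCM and 9 (4) between Rescue and PKP4-KO in HCM. Without a filter they were 3 (5) for PKP4-KO against WT at 24 h HCM, 1 (2) for time in Rescue LCM and 1 (2) for calcium in Rescue at 24 h. With at least 10 counts in every library they were 1 (2) for Rescue against WT at 24 h LCM, 1 (0) for time in WT LCM and 2 (4) for calcium in PKP4-KO at 72 h. With only the groups compared they were 1 (4) for Rescue against WT and 1 (3) for Rescue against PKP4-KO at 72 h LCM, 3 (0) for time in WT LCM, 1 (3) in PKP4-KO LCM, 3 (1) in Rescue HCM and 0 (2) in Rescue LCM, and 2 (4) for calcium in PKP4-KO at 72 h. With DESeq2 they were 1 (0) for time in WT LCM and 1 (0) for the difference of the time effect between PKP4-KO and WT in LCM. With the length offset they were 4 (2) for Rescue against WT at 24 h HCM and 4 (2) at 24 h LCM, 1 (0) for time in WT LCM, 2 (1) in Rescue HCM, 2 (1) for calcium in WT at 72 h and 1 (2) in Rescue at 24 h. Without the 7 libraries they were 8 (5) and 9 (5) for PKP4-KO against WT at 24 h and 72 h HCM, 4 (2) and 4 (2) for Rescue against WT at 24 h HCM and LCM, 2 (1) for time in WT HCM, 4 (0) in WT LCM, 6 (3) in PKP4-KO LCM and 3 (1) in Rescue HCM, 2 (1), 3 (1) and 2 (0) for calcium in WT at 24 h, WT at 72 h and PKP4-KO at 24 h, and 4 (2), 1 (0), 2 (1), 1 (0) and 2 (0) for the differences of the time effect between PKP4-KO and WT in HCM and LCM, Rescue and WT in HCM and LCM, and Rescue and PKP4-KO in LCM.

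Leaving out each library in turn gave 3 to 7 calls for PKP4-KO against WT at 24 h HCM and 3 to 7 at 72 h LCM, 1 to 3 and 2 to 7 for Rescue against WT at 24 h HCM and 72 h LCM, and 0 to 4 for Rescue against PKP4-KO at 72 h LCM. For time it gave 0 to 3 in Rescue LCM and 0 to 1 in WT LCM, for calcium 0 to 1 in WT at 24 h, 2 to 3 in PKP4-KO at 72 h, 0 to 1 in Rescue at 24 h and 3 to 7 in Rescue at 72 h, and for the differences of the time effect 1 to 4 between PKP4-KO and WT in HCM and 0 to 1 between Rescue and PKP4-KO in LCM. With 3 libraries a group, Cdkn1c in WT (4 to 22 reads) and Eda2r (30 to 450 reads) are the members most limited by depth.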
